A study of Homo sapiens with 12 samples.

Results

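The genes described here encode the IGF-binding proteins and the receptor end of insulin and IGF signalling. They are the binding-protein genes *IGFBP2*, *IGFBP3*, *IGFBP4*, *IGFBP5*, *IGFBP6* and *IGFBP7*, the receptor genes *IGF1R* and *INSR*, and the adaptor genes *IRS1* and *IRS2*. These 10 genes were taken by name from the tables of raw counts, out of 30984 genes listed for KYSE30 and 78691 listed for the libraries labelled U138MG, and all 10 passed the filter on low counts in both. The members were chosen by name together with a measured value, the lower *IGFBP5* level in inhibitor-treated KYSE30 cells. The KYSE30 contrast of these 10 genes is therefore given as a description without a test.

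RNA-seq of poly-A RNA covered KYSE30 cells, which come from a squamous carcinoma of the esophagus, and cells labelled U138MG, a glioblastoma line. Cells of WT genotype were given 100 nM of a PTDSS1 inhibitor (PTDSS1i) or its vehicle DMSO for 48 h, with 3 libraries in each of the 4 groups. PTDSS1 makes phosphatidylserine from phosphatidylcholine, and the comparison asks how its inhibition changes gene expression in each line. The labels put each line in a batch of its own and give KYSE30 medium for both, so line and batch cannot be told apart.

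Total counts ran from 18800932 to 26514658 per library. Markers went against the label of the second set. In the DMSO libraries labelled U138MG, the squamous keratin *KRT5* reached 1399 ± 85.5 normalized CPM (SD, n = 3) and *CDH1* 441 ± 3.98, whereas *VIM*, which glioblastoma lines express, was at 0.196 ± 0.0621 and *OLIG2* and *S100B* were at 0. Of 12 squamous epithelial markers, 10 reached 1 CPM in these libraries, all but *KRT14* and *KRT6A*. Of 12 glial or mesenchymal markers 6 did, among them *SPARC* (678), *CD44* (386), *FN1* (72.1), *SOX2* (37.0) and *GFAP* (2.24 normalized CPM). The first 4 of these are not limited to glia, and *SOX2* was higher in KYSE30 with DMSO (96.1). These libraries are called by their label throughout, and no cell type is assigned to them. In KYSE30, *CDH1* was at 496 ± 15.7, *KRT5* at 0.0588 ± 0.0644 and *VIM* at 3.87 ± 0.984 normalized CPM. The summed squamous markers moved with treatment, from 1147–1184 to 1823–1860 normalized CPM in KYSE30 and from 7226–8112 to 3754–4001 in the libraries labelled U138MG. In the latter *KRT15* (4629 to 482) and *KRT5* (1399 to 554) carried most of the drop, while *SFN* (268 to 1121), *KRT17* (276 to 709), *EPCAM* (236 to 366) and *DSG3* (47.9 to 60.6) were higher. The summed glial or mesenchymal markers went from 700–734 to 1121–1175 in KYSE30 and from 1167–1201 to 1142–1192 in the other set. *CD44* (516 to 985) carried most of the increase in KYSE30, where *FN1* (94.6 to 38.8) and *SPARC* (4.38 to 1.89) were lower. The nearly level sum in the libraries labelled U138MG held moves in both directions. *CD44* was higher there (386 to 729), and *SPARC* (678 to 367), *FN1* (72.1 to 46.2) and *SOX2* (37.0 to 4.52) were lower. The part of these shifts in the results that follow was not tested, and in bulk RNA fewer cells of a kind and less RNA per cell cannot be told apart.

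Insulin-like growth factors travel bound to IGF-binding proteins, which hold them away from the receptor or release them when proteases cut the carrier. Free IGF activates the IGF1 receptor, and insulin activates the closely related insulin receptor. Both receptors phosphorylate the IRS adaptors, which recruit PI3-kinase and thereby AKT. AKT in turn keeps FOXO transcription factors out of the nucleus, and *IRS2*, *INSR* and several genes that slow growth are known FOXO targets.

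*IGFBP5* and *IRS2* were the members with the largest fall and the largest increase in KYSE30, and each moved the same way in the libraries labelled U138MG. Their promoters are shown because these members moved most in KYSE30, in opposite directions. Each sequence is the 250 bases before the RefSeq start in GRCh38.p14, on the minus strand and written 5′ to 3′, with CpG dinucleotides in capitals. The *IGFBP5* stretch is chr2:216695550-216695799 and the *IRS2* stretch is chr13:109786584-109786833.
IGFBP5: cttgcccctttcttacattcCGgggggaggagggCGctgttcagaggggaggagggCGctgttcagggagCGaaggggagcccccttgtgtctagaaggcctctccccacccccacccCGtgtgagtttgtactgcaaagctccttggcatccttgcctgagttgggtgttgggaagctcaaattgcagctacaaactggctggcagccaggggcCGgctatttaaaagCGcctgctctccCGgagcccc
IRS2: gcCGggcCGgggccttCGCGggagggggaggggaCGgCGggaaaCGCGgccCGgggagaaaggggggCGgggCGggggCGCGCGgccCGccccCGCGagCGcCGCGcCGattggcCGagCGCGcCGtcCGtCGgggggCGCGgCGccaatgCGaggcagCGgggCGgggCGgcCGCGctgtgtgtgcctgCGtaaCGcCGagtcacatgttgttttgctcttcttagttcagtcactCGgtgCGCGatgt
The *IGFBP5* window holds 8 CpGs at 61.2% G+C and the *IRS2* window holds 42 at 76.4%, against medians of 11.0 CpGs and 58% over 35116 RefSeq promoters of the same length. Promoters were matched for 9 of the 10 members, the exception being *IGFBP7*. Motifs were searched on both strands. The FOXO-type motif GTAAACA occurred in the *IGFBP6* window alone among the members' windows, and in 2.98% of all promoters. The stress-response motif TGATGNAAT occurred in no member window and in 0.888% of all promoters. TATAAA was found only at *IGFBP4*, against 10.7% of all promoters. CCAAT occurred 2 times at *IRS2* and 1 time in an *IGFBP2* window, against 32% of all promoters having a match. GGGCGG was present 5 times at *IRS2* and was not in the *IGFBP5* window, with a background of 42.6%. A match of these letters is a description only.

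*IGFBP5* showed the largest change of the family in both sets. It lies on chromosome 2 (GRCh38, 216672105-216695525, minus strand), 7668 bp from *IGFBP2* (216632828-216664436, plus strand), so that the ends of these neighbouring genes face each other. In KYSE30 the DMSO libraries gave 49.8, 70.1 and 74.1 normalized CPM and the PTDSS1i libraries 13.0, 14.0 and 14.1. The mean was 4.73-fold lower with inhibitor (log2 fold change −2.24, SE 0.18). The DMSO libraries labelled U138MG read 410, 405 and 388 and the PTDSS1i libraries 40.4, 43.4 and 24.4. *IGFBP5* fell 11.2-fold there (log2 fold change −3.48, SE 0.22, edgeR adjusted p = 0.000145). The treated and untreated libraries did not overlap in either set, and the third inhibitor library labelled U138MG was the lowest of its group. Without it the log2 fold change was −3.25. An antisense gene, AC007563.2, overlaps *IGFBP5* exons and is not analysed here.

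*IGFBP2*, the neighbour of *IGFBP5*, was lower with inhibitor to a much smaller degree. KYSE30 had 80.6, 99.7 and 79.4 normalized CPM with DMSO and 71.0, 65.6 and 64.6 with PTDSS1i, a log2 fold change of −0.37 (SE 0.079). The libraries labelled U138MG had 57.3, 60.1 and 57.3 with DMSO and 47.5, 48.9 and 48.1 with PTDSS1i. There the fall was 0.27 on the log2 scale (log2 fold change −0.27, SE 0.048, edgeR adjusted p = 1.31e-05), and the groups did not overlap in either set.

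*IGFBP3* encodes the main carrier of IGFs in blood and was the most abundant binding protein transcript per length in both DMSO groups. In KYSE30 it read 263, 413 and 324 normalized CPM with DMSO and 287, 297 and 275 with PTDSS1i. All 3 inhibitor libraries lay within the range of the DMSO libraries, and the log2 fold change of −0.22 had an SE of 0.18. *IGFBP3* was at 549, 627 and 535 with DMSO and at 387, 365 and 307 with inhibitor in the libraries labelled U138MG. It fell there with a log2 fold change of −0.69 (SE 0.12, edgeR adjusted p = 0.00633), with no overlap.

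*IGFBP4*, an inhibitory carrier that the protease PAPPA releases IGF from by cleavage, had a mean of 8.85 normalized CPM in KYSE30 and of 216 in the libraries labelled U138MG with DMSO, in tables that were normalized separately. It was at 8.75, 9.43 and 8.38 normalized CPM with DMSO and 6.71, 7.49 and 6.56 with PTDSS1i in KYSE30 (log2 fold change −0.36, SE 0.11). The libraries labelled U138MG had 215, 219 and 215 with DMSO and 227, 221 and 239 with inhibitor. Their log2 fold change of 0.08 (SE 0.035) passed the threshold narrowly (edgeR adjusted p = 0.0406). With library size as the only scaling it turned to −0.064 (adjusted p = 0.0983), so no direction is given for *IGFBP4* there.

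*IGFBP6* and *IGFBP7* were the binding-protein genes that were higher with inhibitor. *IGFBP6*, which binds IGF2 in preference to IGF1, was at 18.6, 17.95 and 18.9 normalized CPM with DMSO and 27.6, 29.1 and 27.04 with PTDSS1i in KYSE30 (log2 fold change 0.59, SE 0.072). It rose from 37.8, 36.3 and 34.0 to 85.0, 74.2 and 76.5 in the libraries labelled U138MG, a 2.18-fold increase (log2 fold change 1.13, SE 0.056, edgeR adjusted p = 9.03e-16). Treated and untreated libraries were apart in both sets.

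*IGFBP7* encodes a secreted protein with low affinity for IGFs. It was at 22.0, 26.3 and 23.9 normalized CPM with DMSO and 29.4, 32.1 and 30.9 with PTDSS1i in KYSE30 (log2 fold change 0.36, SE 0.074). The libraries labelled U138MG rose from 38.6, 40.4 and 37.0 to 165, 159 and 157, or 4.15-fold (log2 fold change 2.05, SE 0.044, edgeR adjusted p = 4.07e-25). The inhibitor libraries were well above the DMSO libraries in the second set and just above them in KYSE30. Exons of *POLR2B* overlap *IGFBP7* on the opposite strand, and the library kit does not mark strand, so reads of the shared stretch cannot be told apart. *POLR2B* itself had log2 fold changes of 0.22 in KYSE30 and 0.27 in the libraries labelled U138MG.

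**Figure D1:**
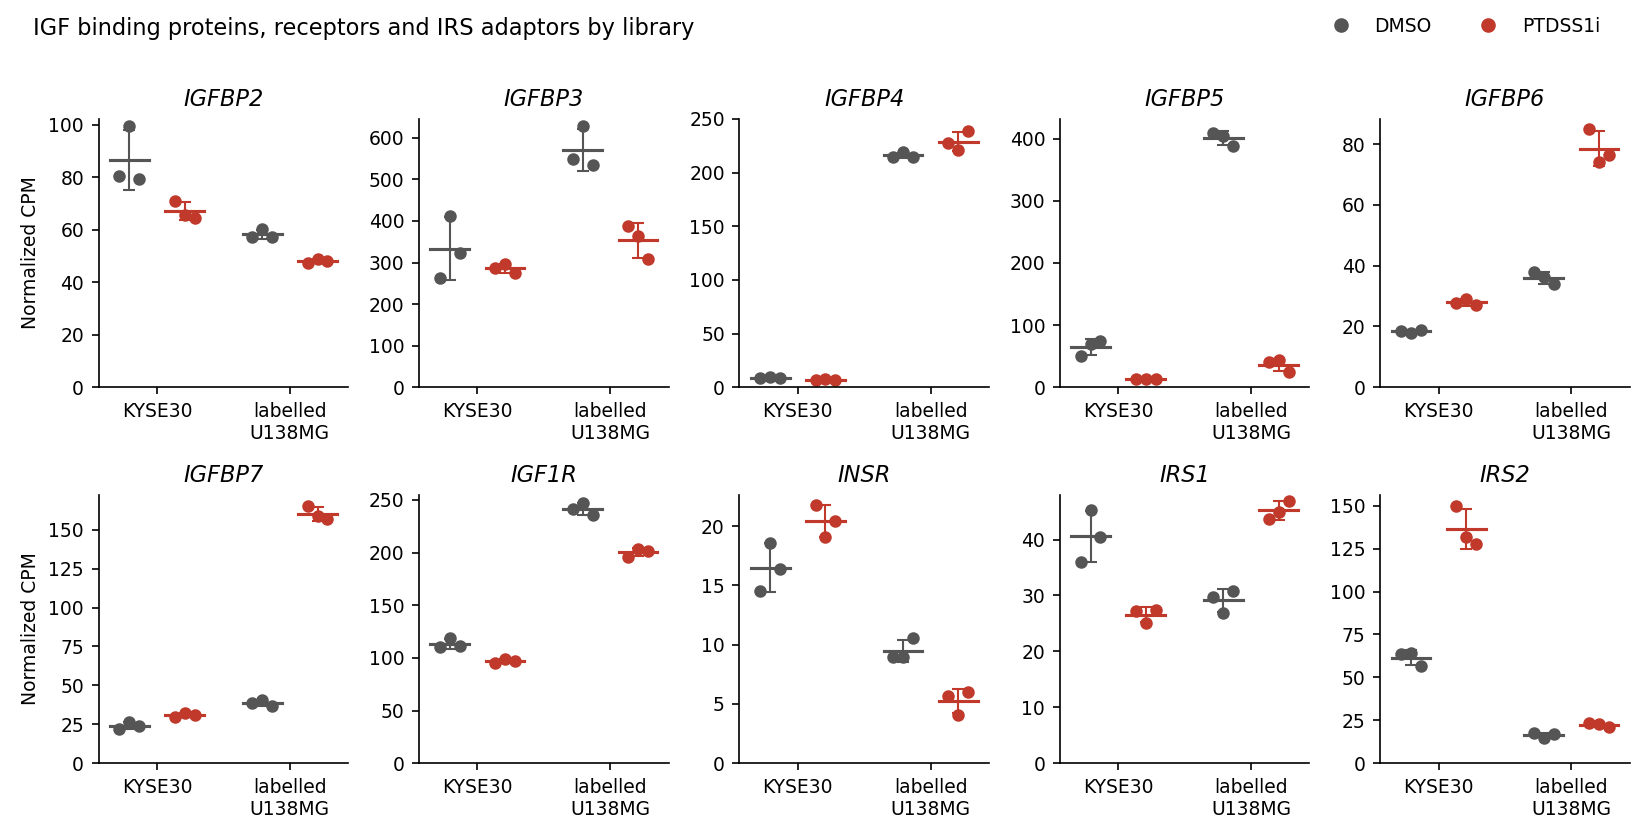
Normalized CPM of the 10 genes (y axes, each from 0) in KYSE30 and in the libraries labelled U138MG (x axes), with DMSO in grey and PTDSS1i in red. Points are libraries, horizontal bars group means and vertical bars the SD (n = 3). *IGFBP5* drops from 388–410 to 24.4–43.4 in the libraries labelled U138MG, where *IGFBP7* goes from 37.0–40.4 to 157–165.

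Neither receptor gene changed by 2-fold. *IGF1R*, the receptor for both IGFs, was at 110, 119 and 111 normalized CPM with DMSO and 95.3, 98.8 and 96.7 with PTDSS1i in KYSE30 (log2 fold change −0.22, SE 0.052). It fell in the libraries labelled U138MG from 241, 247 and 236 to 196, 203 and 202 (log2 fold change −0.27, SE 0.034, edgeR adjusted p = 7.44e-08). No inhibitor library reached the lowest DMSO library in either set.

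*INSR*, the insulin receptor gene, went opposite ways. In KYSE30 it was at 14.5, 18.6 and 16.4 normalized CPM with DMSO and 21.8, 19.1 and 20.5 with PTDSS1i (log2 fold change 0.31, SE 0.090). It fell in the libraries labelled U138MG from 8.94, 8.97 and 10.6 to 5.66, 4.10 and 6.03, or 1.80-fold (log2 fold change −0.85, SE 0.14, edgeR adjusted p = 4.30e-06). The ratio of *INSR* to *IGF1R* per exon length was 0.194 ± 0.0167 with DMSO and 0.282 ± 0.0236 with PTDSS1i in KYSE30, and 0.0525 ± 0.0063 and 0.0351 ± 0.00714 in the other set (SD, n = 3).

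The adaptors *IRS1* and *IRS2*, which dock PI3-kinase to the activated receptors, moved apart in KYSE30 and together in the other set. *IRS1* in KYSE30 was at 36.1, 45.2 and 40.4 normalized CPM with DMSO and 27.2, 25.1 and 27.4 with PTDSS1i (log2 fold change −0.61, SE 0.077). *IRS1* rose in the libraries labelled U138MG from 29.8, 26.9 and 30.8 to 43.7, 45.0 and 47.0 (log2 fold change 0.64, SE 0.061, edgeR adjusted p = 2.77e-10). The groups were apart in both sets, in opposite orders.

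*IRS2* was higher with inhibitor in both. KYSE30 gave 63.6, 64.3 and 56.5 normalized CPM with DMSO and 150, 132 and 128 with PTDSS1i, a 2.22-fold higher mean (log2 fold change 1.15, SE 0.066). *IRS2* rose in the libraries labelled U138MG from 17.3, 14.8 and 16.9 to 23.2, 22.7 and 21.1 (log2 fold change 0.45, SE 0.080, edgeR adjusted p = 1.56e-05). The antisense gene AL162497.1, which overlaps *IRS2* exons, had 0–9 counts per library. Per exon length, the ratio of *IRS2* to *IRS1* was 1.87 ± 0.249 with DMSO and 6.28 ± 0.533 with PTDSS1i in KYSE30, and 0.686 ± 0.0228 and 0.605 ± 0.0502 in the libraries labelled U138MG (SD, n = 3).

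Counted together, 5 members passed the threshold as higher and 5 as lower in the libraries labelled U138MG. Of all 17666 genes tested there, 67.5% were called, 33.9% higher and 33.6% lower. *IGFBP4* is among the 5 higher, though its sign depends on the scaling. In KYSE30 62% of 16389 genes were called, 30.1% higher and 32% lower. The members called are not counted there, since this contrast was used to choose them. Treated and untreated libraries did not overlap for any of the 10 members in the libraries labelled U138MG (71.4% of all genes) and were apart for 9 in KYSE30 (66.3%), the exception being *IGFBP3*. With library size as the only scaling, the genes called higher and lower were 3932 and 6460 in KYSE30 in place of 4927 and 5238, and 4533 and 7694 in the other set in place of 5989 and 5930. That scaling moved the median of all genes by −0.10 and −0.15 on the log2 scale. The median log2 fold change of the members was −0.22 in KYSE30 and −0.093 in the libraries labelled U138MG, beside −0.025 and −0.026 over all genes tested.

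Beyond a 2-fold change in KYSE30 were *IRS2* (higher) and *IGFBP5* (lower). Among all genes there, 6.4% and 7.04% passed the threshold and went that far. This contrast was used to choose the members, so nothing is read from their places in KYSE30. In the libraries labelled U138MG, *IGFBP6* and *IGFBP7* (higher, 8.19% of all genes) and *IGFBP5* (lower, 11.6%) were beyond a 2-fold change. With library size as the only scaling *IGFBP6* had a log2 fold change of 0.98 there, just short of 2-fold. Among the 9 members without overlap in both sets, 6 moved the same way in both and 3 moved opposite ways. Those 3 were *INSR*, *IRS1* and *IGFBP4*, the last with a sign that depends on the scaling. The same count was not made over all genes, and nothing is read from it. The difference in log2 fold change between the sets was 0.44 for *IGFBP4*, −1.16 for *INSR* and 1.24 for *IRS1* (U138MG-labelled minus KYSE30), and was not tested.

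**Figure D2:**
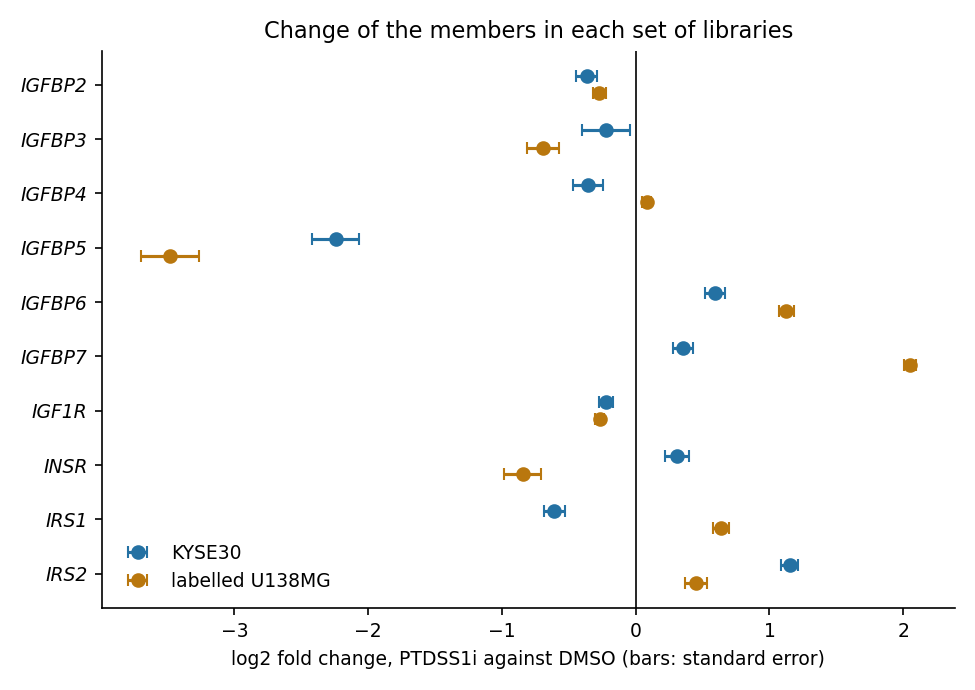
Log2 fold change of the 10 genes, PTDSS1i against DMSO (x axis), with KYSE30 in blue and the libraries labelled U138MG in orange; bars are standard errors of the fit to 6 libraries each. *IGFBP5* lies at −2.24 and −3.48, and *INSR* and *IRS1* lie on opposite sides of 0 in the 2 sets.

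Levels of different genes were compared as normalized CPM per kilobase of exon, each table being normalized on its own. In KYSE30 with DMSO, *IGFBP3* led at 73.0 ± 16.5, followed by *IGFBP2* at 18.2 ± 2.39 (SD, n = 3). *IGFBP6*, *IGFBP7*, *IGFBP5*, *IGF1R* and *IRS2* came next, from 13.7 down to 7.55, each overlapping its neighbour in that order. *IRS1* (4.08) and *IGFBP4* (4.02) could not be separated from each other, and *INSR* was lowest at 1.58 ± 0.196. With inhibitor, *IGFBP5* moved from the fifth to the ninth place, at 2.12 ± 0.0977, where it overlapped *INSR*, and *IRS2* reached the third place at 16.7 ± 1.45, overlapping *IGFBP7*.

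In the DMSO libraries labelled U138MG, *IGFBP3* (125 ± 10.9), *IGFBP4* (98.2 ± 1.03) and *IGFBP5* (62.2 ± 1.75) led, and *INSR* was again lowest at 0.908 ± 0.0888. No neighbours overlapped in that order. With inhibitor, *IGFBP4* led at 104 ± 4.09, *IGFBP7* (83.1 ± 2.33) and *IGFBP3* (77.3 ± 8.99) overlapped, and *IGFBP5* (5.599 ± 1.58) overlapped *IRS1* (4.54 ± 0.167). These levels and part of the order depend on the length assumed. With the longest transcript in place of all exons, *IGFBP3* with DMSO read 138.3 in KYSE30 and 236.5 in the other set. It then also led with inhibitor in the libraries labelled U138MG, at 146 ± 17.0, ahead of *IGFBP7* (112 ± 3.15) and *IGFBP4* (104 ± 4.09). In KYSE30 with inhibitor *IGFBP5* (2.20 ± 0.101) then came below *INSR* (2.28 ± 0.151), and *IRS2* came below *IGFBP7*.

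The summed level of the 6 binding-protein genes was 344 ± 14.5 with DMSO and 338 ± 13.1 with PTDSS1i in the libraries labelled U138MG (normalized CPM per kilobase, SD, n = 3), and the groups overlapped. Within it, the share of *IGFBP5* went from 18.1 ± 0.598% to 1.65 ± 0.441% and that of *IGFBP7* from 5.82 ± 0.0397% to 24.6 ± 0.260%. The share of *IGFBP6* went from 7.78 ± 0.397% to 17.2 ± 0.724%, and that of *IGFBP3* from 36.2 ± 1.67% to 22.8 ± 1.96%. *IGFBP4* held 28.6 ± 0.922% with DMSO and 30.8 ± 2.04% with inhibitor. With the longest transcript as length, the sum was 470 ± 24.5 with DMSO and 446 ± 21.9 with inhibitor, and *IGFBP3* held 50.2 ± 1.78% and 32.7 ± 2.41% of it.

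In KYSE30 the sum was 131 ± 21.1 with DMSO and 119 ± 3.72 with PTDSS1i. *IGFBP3* held more than the rest together, at 55.2 ± 3.61% and 52.8 ± 0.374%. *IGFBP5* went from 7.64 ± 1.09% to 1.79 ± 0.101%, while *IGFBP6* went from 10.7 ± 1.86% to 17.5 ± 0.172%. The ratio of *IGFBP7* to *IGFBP5* per length was 1.27 ± 0.201 with DMSO and 7.51 ± 0.158 with PTDSS1i in KYSE30. For the libraries labelled U138MG it was 0.322 ± 0.00991 with DMSO and 13.7, 12.2 and 21.4 in the 3 inhibitor libraries.

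**Figure D3:**
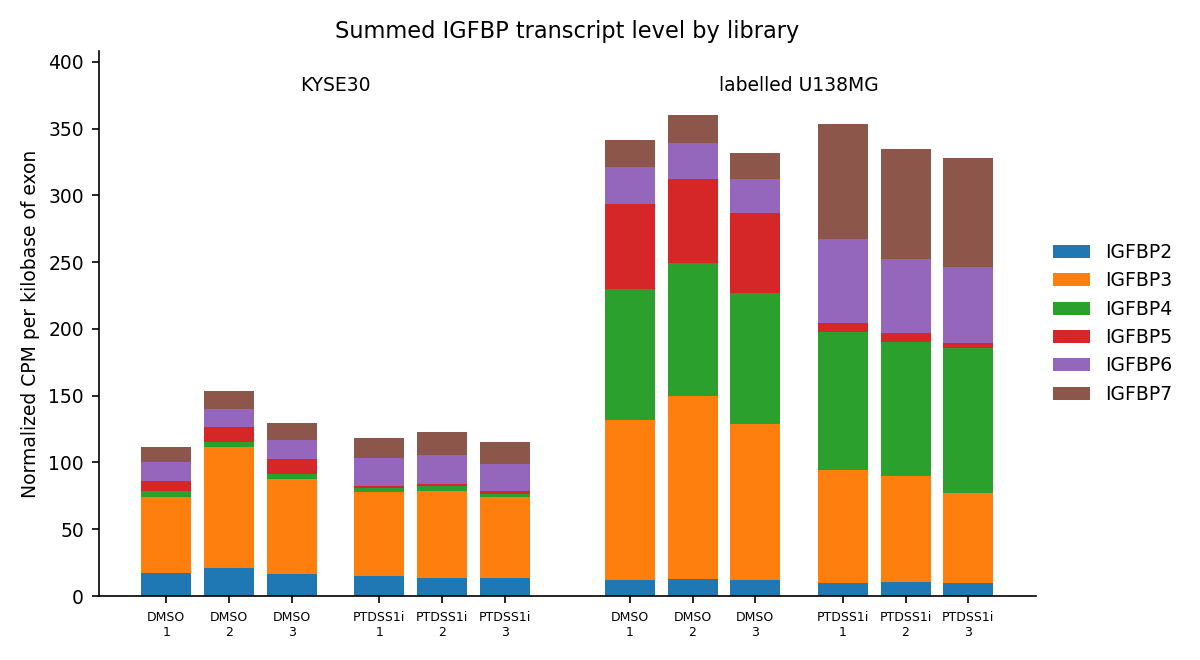
Summed level of the 6 IGF-binding protein genes in each library, in normalized CPM per kilobase of exon (y axis, from 0), stacked by gene. In the libraries labelled U138MG the bars stay between 328 and 360 while the *IGFBP5* segment shrinks from 17.4–18.6% to 1.16–2.01% of the bar and the *IGFBP7* segment widens from 5.79–5.86% to 24.3–24.8%.

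Of the ligand genes, *IGF1* had 0–2 counts per library in KYSE30 and 0 in the libraries labelled U138MG, and was not tested. *IGF2*, the fetal-type growth factor, was at 19.8 ± 0.750 normalized CPM with DMSO and 32.0 ± 2.00 with PTDSS1i in KYSE30, where it rose (log2 fold change 0.69, SE 0.072, edgeR adjusted p = 3.40e-08). Its exons overlap *INS-IGF2*, so its reads may be shared with that gene. *IGF2* had 0–9 counts in the libraries labelled U138MG and was not tested. *IGF2R*, which clears IGF2 from the cell surface, rose in both sets, by 0.55 (adjusted p = 2.30e-09) and 0.56 (adjusted p = 4.91e-15) on the log2 scale in edgeR. *IGFBP1*, next to *IGFBP3* on chromosome 7, had 0–1 counts in the libraries labelled U138MG and is not analysed here in KYSE30. *IGFBPL1*, a gene related to the binding proteins, fell in the libraries labelled U138MG (log2 fold change −0.44, edgeR adjusted p = 0.00681), a call that was lost without DMSO replicate 3 and without PTDSS1i replicate 1. *PTDSS1*, whose product the compound inhibits, had a log2 fold change of −0.046 in KYSE30 (edgeR adjusted p = 0.494) and fell by 0.38 in the libraries labelled U138MG (log2 fold change −0.38, adjusted p = 1.06e-08).

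Around the members, 95 further genes of the pathway were followed. In KYSE30, 80 were tested, of which 48 rose and 12 fell, with a median log2 fold change of 0.21, beside 30.1% of all genes higher and 32% lower. Among the libraries labelled U138MG, 82 were tested, of which 42 rose and 22 fell, with a median of 0.16, beside 33.9% of all genes higher and 33.6% lower. No test of the lists against other genes was made. With library size as the only scaling these counts were 34 and 13 in KYSE30 and 31 and 30 in the other set. With 10 counts required in every library they were 47 and 12 in KYSE30 and 39 and 24 in the other set. The change differed between the sets for 57 of 83 genes (68.7%, interaction of line and treatment in edgeR), beside 49.9% of 18405 genes.

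Of the proteases that cut the binding proteins, and their inhibitors, 5 rose and 1 fell of 6 tested in KYSE30 (30.1% and 32% of all genes), and 6 rose of 8 tested in the libraries labelled U138MG (33.9% of all genes), the other 2 not passing the test. *ADAM28*, named after its values were seen, is 1 of the 5 counted as higher in KYSE30. It was at 0.286 ± 0.0704 normalized CPM with DMSO and 0.953 ± 0.425 with PTDSS1i there. It passed the filter on low counts through its inhibitor libraries alone. With 10 counts required in every library, 4 rose in KYSE30 and 5 in the other set. *STC2*, which encodes an inhibitor of PAPPA, rose by 0.88 and 1.59 on the log2 scale (edgeR adjusted p = 1.34e-09 and 1.69e-21). *ADAM12*, a metalloprotease that cleaves IGFBP3 and IGFBP5, rose by 1.36 and 1.69 (adjusted p = 2.89e-07 and 5.63e-15 in edgeR). *HTRA1*, a serine protease that cuts IGFBP5, fell in KYSE30 (log2 fold change −0.81) and had a log2 fold change of 0.18 in the other set, close to the shift that scaling by library size brings there. *PAPPA*, named after its values were seen, had 0, 4 and 0 counts with DMSO and 67, 53 and 94 with PTDSS1i in the libraries labelled U138MG, and 0–4 counts in KYSE30. It is 1 of the 6 genes counted as higher there, but it passed the filter on low counts through its inhibitor libraries alone, so its p is not given.

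Of the other adaptors, 9 of 14 tested rose in KYSE30 (30.1% of all genes). In the libraries labelled U138MG 8 rose and 2 fell of 14 (33.9% and 33.6% of all genes). Under library-size scaling 3 rose in each set, so no direction is given for this group. *SH2B3*, a negative adaptor of cytokine and growth factor signalling, rose by 1.49 in the libraries labelled U138MG, and *SH2B1*, which enhances insulin receptor activity, had a log2 fold change of −0.95 there. In KYSE30 the log2 fold changes were 0.19 for *SH2B3* and 0.094 for *SH2B1*, and neither passed the test. The kinase branch from PI3-kinase to mTOR had 10 higher and 6 lower of 23 in KYSE30 (30.1% and 32% of all genes). The other set had 12 higher and 7 lower of 24 (33.9% and 33.6%), and library-size scaling gave 9 and 9 there. *PIK3R1*, the main regulatory subunit of PI3-kinase, fell in both (log2 fold changes −0.35 and −1.14). *PIK3R3*, another regulatory subunit, rose in KYSE30 by 1.20 but had a log2 fold change of −0.44 in the libraries labelled U138MG (edgeR adjusted p = 5.37e-05). *GSK3B*, a kinase that AKT inhibits, rose by 0.84 and 0.75. *EIF4EBP1* rose by 1.65 in the libraries labelled U138MG, the largest change of this branch there. In KYSE30 it had a log2 fold change of −0.0044 and did not pass the test.

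Of 21 negative regulators of the pathway, 13 rose and 3 fell in KYSE30 (30.1% and 32% of all genes), and 11 rose and 5 fell in the libraries labelled U138MG (33.9% and 33.6%). Under library-size scaling the counts in the latter were 10 and 8. *TRIB3*, a pseudokinase that binds AKT, rose by 1.63 and 3.45 on the log2 scale, and the difference of 1.78 (SE 0.078) passed the test of interaction in edgeR (adjusted p = 1.97e-18). *SOCS3*, which targets IRS proteins for degradation, went from 3.05 ± 0.342 to 35.4 ± 2.76 normalized CPM in the libraries labelled U138MG (SD, n = 3), whereas in KYSE30 it was 17.9 ± 1.28 and 16.6 ± 0.232. *DDIT4*, an inhibitor of mTOR complex 1, rose by 1.28 in KYSE30 and by 0.70 in the other set. The largest change of this list in KYSE30 was a fall, that of *DOK1* from 8.52 ± 0.689 to 1.79 ± 0.351 normalized CPM (log2 fold change −2.23). In the libraries labelled U138MG *DOK1* had a log2 fold change of 0.12 and did not pass the test.

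Among FOXO factors and their targets, 9 rose and 2 fell of 14 tested in KYSE30 (median log2 fold change 0.35, beside 30.1% and 32% of all genes), and 4 rose and 7 fell of 13 in the libraries labelled U138MG (median −0.43, beside 33.9% and 33.6%). Library-size scaling left 5 higher and 2 lower in KYSE30, and 3 higher and 8 lower in the other set. *FBXO32*, a ubiquitin ligase gene induced by FOXO in muscle wasting, rose by 1.98 in KYSE30 and had a log2 fold change of 0.19 in the other set. *CCNG2*, an atypical cyclin gene, rose by 1.55 in KYSE30 and had a log2 fold change of −0.82 in the libraries labelled U138MG. The difference for *CCNG2* was −2.41 (SE 0.081, interaction in edgeR, adjusted p = 3.38e-21). *BCL6*, a transcriptional repressor, rose in both, by 1.55 and 0.71. In the libraries labelled U138MG the largest log2 fold changes of this list were −1.80 for *FOXO6*, −1.52 for *SESN3* and 1.11 for *GADD45A*. Those genes had log2 fold changes of 0.27, 0.061 and 0.20 in KYSE30, where *SESN3* did not pass the test. Of the members known as FOXO targets, *IRS2* was higher in both sets, whereas *INSR* was higher in KYSE30 alone. FOXO activity was not measured, and a link of these changes to FOXO factors was not tested.

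**Figure D4:**
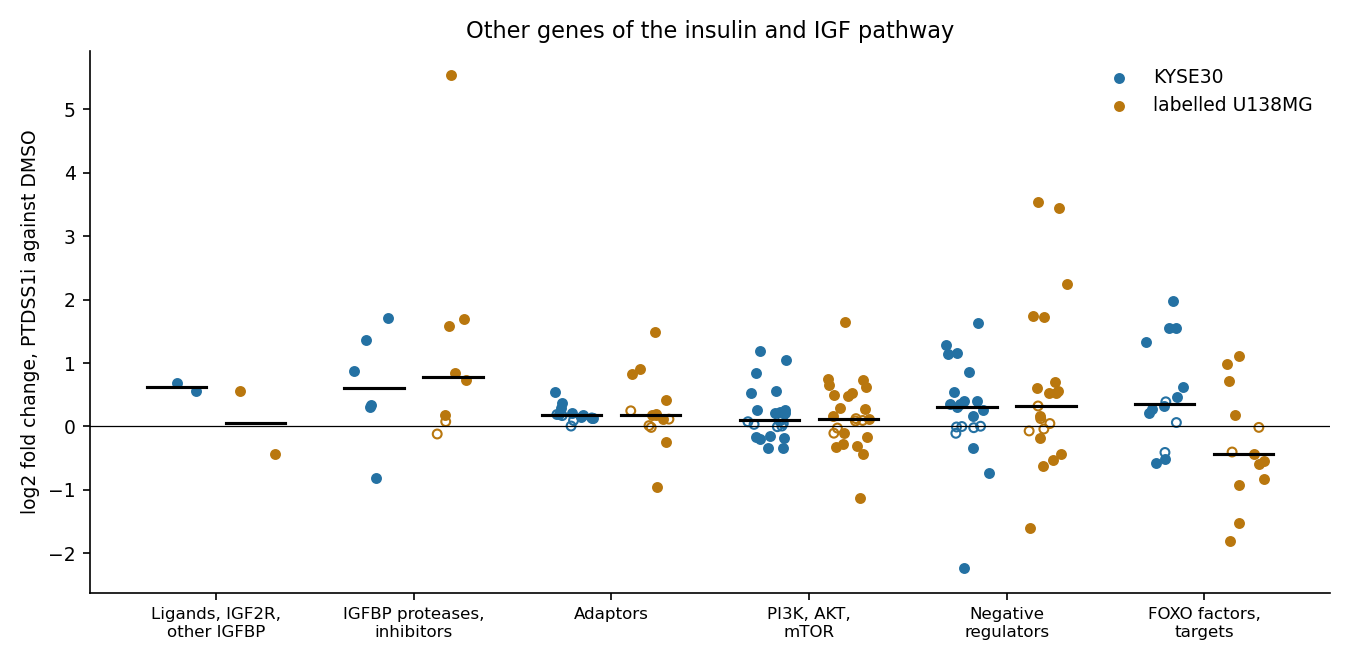
Log2 fold change, PTDSS1i against DMSO (y axis), of the pathway genes outside the 10 members, by list (x axis), with KYSE30 in blue and the libraries labelled U138MG in orange. Filled points passed the edgeR threshold, open points did not, and black bars are medians; the FOXO list has a median of 0.35 in KYSE30 and −0.43 in the libraries labelled U138MG.

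The genes whose pattern lay nearest to that of *IGFBP5* were sought among 11381 genes over the 4 group means of centred log2 CPM. The nearest 3 by Euclidean distance were *MAP2K6* (1.09), a kinase of the p38 pathway, *CENPE* (1.14), a kinetochore motor of mitosis, and *MPP2* (1.15). Their log2 fold changes in KYSE30 were −2.51, −2.28 and −1.48, and in the libraries labelled U138MG −3.75, −2.95 and −2.19.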

How the data were processed

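The authors deposited raw counts, whole reads per gene, in one table for each line. The submitters' processing notes name Trimmomatic, STAR, featureCounts and hg38; versions, annotation and strand setting are not given in the sources used here. Libraries were made with the TruSeq RNA Sample Prep Kit v2.

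Each table was analysed on its own in R 4.3.3 with edgeR 4.0.16 and limma 3.58.1: filterByExpr (minimum count 10, minimum total 15), TMM scaling and the robust quasi-likelihood test of PTDSS1i against DMSO, with Benjamini-Hochberg adjustment over all genes tested and a threshold of 0.05. Fold changes are on the log2 scale. Normalized CPM are relative to the TMM-scaled library size. Between the lines, the change was compared as an interaction of line and treatment over 18405 genes joined by identifier without version. The fits were run on simulated data with the same spread for every gene, unlike real genes, as a check of the code only.

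Groups and replicate numbers came from the labels, which do not say that replicates were separate cultures, so p-values measure the spread between these libraries. With 3 libraries against 3, an exact permutation test of a single gene cannot go below 0.1, and none was used. Every pair of replicates differed beyond sampling noise in a chi-square test of counts.

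The members and lists were chosen with earlier results of these data known. Named genes were all members, the ligands, *IGF2R*, *IGFBP1*, *PTDSS1*, the 3 genes nearest to *IGFBP5* in pattern, and up to 3 genes per list and set with the largest change among those past the threshold, at 5 CPM or more and without overlap between treatments. Other genes are said to be chosen after their values were seen.

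Lengths and positions came from GENCODE v29 (GRCh38), whose relation to the annotation of the tables is unknown, and promoters from RefSeq. Alternatives were library-size scaling, both filters on low counts, DESeq2 1.42.0, a replicate block, both lines fitted together, the longest transcript as length, a 2-fold threshold and leaving out each library in turn.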

Additional observations from a re-analysis of the deposited data

Results flagged for a closer look

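Each value here is a difference in log2 fold change between the libraries labelled U138MG and KYSE30, the former minus the latter, and is listed because the effect of PTDSS1i was not alike in both. Among the members, all libraries moved one way in KYSE30 and the opposite way in the other set for *IGFBP4* (0.44), *INSR* (−1.16) and *IRS1* (1.24). For members with the same sign in both sets, the difference was 1.69 for *IGFBP7*, −1.24 for *IGFBP5* and −0.70 for *IRS2*. It was 0.53 for *IGFBP6* and −0.47 for *IGFBP3*, whose groups overlapped in KYSE30. For completeness, it was 0.093 for *IGFBP2* and −0.046 for *IGF1R*. The differences of the members were not tested, and that of *IGFBP4* depends on the scaling.

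For the other genes the interaction of line and treatment in edgeR passed the threshold. Among proteases and inhibitors of the binding proteins the difference was 0.67 for *STC2*, 0.95 for *HTRA1* and 0.46 for *ADAM17*. Among adaptors it was −0.60 for *SOS2*, −0.21 for *CRK*, 0.73 for *SHC1*, −1.08 for *SH2B1* and 1.26 for *SH2B3*. In the PI3-kinase to mTOR branch it was −1.67 for *PIK3R3*, −0.83 for *PIK3R1* and 1.62 for *EIF4EBP1*. For negative regulators it was 1.78 for *TRIB3*, 2.32 for *DOK1*, −0.62 for *DDIT4*, 3.60 for *SOCS3* and 1.06 for *TRIB1*. In the FOXO list it was −2.41 for *CCNG2*, −0.88 for *BCL6*, −1.84 for *FBXO32*, −2.11 for *FOXO6*, −1.62 for *SESN3* and 0.87 for *GADD45A*. Line and batch are the same split and cannot be told apart.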

How the results depend on the processing

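In the libraries labelled U138MG, 9 of the 10 members kept their direction and passed the threshold under all 12 alternatives. *IGFBP4* reversed to −0.064 with library size only (adjusted p = 0.0983), and no longer passed under a stricter filter (0.133), with both lines together (0.0949), or on leaving out DMSO library 1 (0.107), DMSO library 3 (0.0749) or inhibitor library 3 (0.140). *IGFBP5* ranged from −3.63 to −3.25 there and from −2.39 to −2.13 in KYSE30, and *IGFBP3* in KYSE30 from −0.36 to −0.043. All 10 members kept their sign in KYSE30 under the 12 alternatives. These fits reuse the contrast that served to choose the members, so nothing is read from the kept signs.

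Requiring a 2-fold change as well left 1049 genes higher and 1154 lower in KYSE30, and 1446 higher and 2048 lower in the other set. Without one library at a time, the genes called higher and lower were 4527–4981 and 4773–5155 in KYSE30, and 5771–5898 and 5545–5718 in the other set.

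Same-numbered libraries correlated at −0.00288 to 0.0754 in their deviations from group means. Of the 6 DMSO libraries, 5 matched the inhibitor library of their own number best, among them every one in KYSE30. The main fit did not pair libraries by number, and whether same-numbered libraries share an origin was not tested. With a replicate block, 5081 genes were higher and 5377 lower in KYSE30, and 6019 and 5923 in the other set.

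The call of *IGFBPL1* was lost without DMSO replicate 3 and without PTDSS1i replicate 1, and the gene was not in the fit of both lines together. Depth limits *IGF1*, *IGF2* in the libraries labelled U138MG, and *PAPPA* in KYSE30, with 0–9 counts per library.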

Other observations

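Further genes of the pathway lists are given here as values, chosen after their values were seen. *FOXO3*, a FOXO factor gene, rose from 86.8 ± 6.67 to 218 ± 10.6 normalized CPM in KYSE30 and from 184 ± 2.57 to 362 ± 5.34 in the libraries labelled U138MG (SD, n = 3). Its log2 fold changes were 1.33 and 0.98 (edgeR adjusted p = 2.30e-14 and 2.10e-20). *FOXO1* fell in KYSE30 (log2 fold change −0.51, edgeR adjusted p = 4.67e-06), whereas in the libraries labelled U138MG it was at 14.3 ± 1.06 with DMSO and 14.1 ± 1.95 with PTDSS1i.

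*DEPTOR*, which encodes an inhibitor bound to mTOR, went from 8.14 ± 0.642 to 18.1 ± 0.0527 normalized CPM in KYSE30 and from 5.19 ± 0.283 to 1.70 ± 0.222 in the libraries labelled U138MG. *SESN2*, a sestrin gene that restrains mTOR complex 1, rose in both sets (log2 fold changes 0.86 and 1.75). *INPP4B*, a lipid phosphatase gene, rose in the libraries labelled U138MG from 12.3 ± 1.05 to 40.6 ± 3.08, and was at 74.4 ± 2.30 and 74.3 ± 2.80 in KYSE30. The log2 fold changes of *AKT1* and *AKT2* were −0.14 and 0.032 in KYSE30, where *AKT1* passed the threshold and *AKT2* did not, and 0.12 and 0.47 in the libraries labelled U138MG, where both did. The *AKT1* value in the latter is smaller than the shift of −0.15 in the median gene that library-size scaling brings.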
